A study of Mus musculus with 33 samples.

Results

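The mouse microRNAs mmu-miR-26a, mmu-miR-26b, mmu-miR-101a, mmu-miR-101b, mmu-miR-103 and mmu-miR-107, written below without the prefix for mouse, are 6 of the 650 miRNAs on the array, 611 of which are named as mouse miRNAs. They were chosen by name, without star strands, as broadly expressed miRNAs that lie inside other genes and that are candidates for a stable reference. All 6 were among the 172 miRNAs bright enough to be tested. The array measured miRNA in whole lung of female C57BL/6 mice, with 1 array per mouse and 33 arrays in all. Exposed mice had received 0.162 mg of Printex 90, a commercial carbon black of nanosized particles, through the trachea, and control mice the vehicle alone. Both were killed on day 1, 3 or 28, which gave 6, 4 and 5 exposed lungs and 6, 6 and 6 control lungs. Every group, controls included, had received the vehicle, a 0.9% NaCl solution with 10% bronchoalveolar lavage fluid freed of cells, and no group went without instillation. Only females, 1 strain and 1 dose were measured. In bulk lung, fewer cells of a type and less of a miRNA per cell cannot be told apart.

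A miRNA is a short RNA that guides Argonaute proteins to messenger RNAs, mainly through its seed, bases 2 to 8, and lowers their translation and stability. Related miRNAs with the same seed share most of their targets. The miR-26 family represses Ezh2 and regulators of the cell cycle, and its genes lie in introns of the Ctdsp genes, which encode small phosphatases that act in the same growth-restraining pathway. The miR-101 family is best known for repressing Ezh2, the histone methyltransferase of Polycomb repressive complex PRC2. miR-103 and miR-107 lie in introns of the pantothenate kinase genes, which start the synthesis of coenzyme A, and are known for repressing Dicer and caveolin-1. All of these miRNAs are found in many tissues, lung among them.

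The mature sequences are shown because the 3 families are pairs of near-identical miRNAs, which bears on how far an array can separate them. They are given 5′ to 3′ from RefSeq (GRCm38.p6), with the seed in capitals. The array names lack the 5p or 3p suffix of the RefSeq entries, so each of the 6 was assigned to an entry by name. Probe sequences were not available, so whether the probes were made for these sequences was not checked.
miR-26a: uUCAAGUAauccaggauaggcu
miR-26b: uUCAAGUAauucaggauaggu
miR-101a: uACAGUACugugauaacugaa
miR-101b: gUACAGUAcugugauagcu
miR-103: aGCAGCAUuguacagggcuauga
miR-107: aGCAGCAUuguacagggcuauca

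The miR-26 pair has 1 seed and matched at 19 of 21 aligned bases, with the changes C11U and C21U counted from the 5′ end of miR-26a. The miR-103 and miR-107 pair has 1 seed and matched at 22 of 23 bases, and its sole change is G22C, counted from the 5′ end of miR-103. The 2 miR-101 sequences matched at 17 of 18 bases once base 1 of miR-101a was set on base 2 of miR-101b, with the change A16G counted from the 5′ end of miR-101a. As RefSeq gives them, the seed of miR-101b is therefore that of miR-101a moved by 1 base. A probe's hybridisation to its near-identical partner was not measured here, so part of each signal may belong to the other member of the pair.

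The 6 miRNAs come from 8 genes, each inside the bounds of a longer gene. Mir26a-1 lies on the + strand at chr9:119031811-119031832 (GRCm38.p6, mature sequence) inside Ctdspl, and Mir26a-2 on the + strand at chr10:126995543-126995564 inside Ctdsp2. Both give the same mature miR-26a, so the array cannot tell them apart. Mir26b lies on the + strand at chr1:74394324-74394344 inside Ctdsp1. Mir101a lies on the - strand at chr4:101346957-101346977 inside the long noncoding RNA gene E130102H24Rik, and Mir101b on the + strand at chr19:29135338-29135356 inside Rcl1, whose product acts in ribosome assembly. Mir103-1 on the + strand at chr11:35782447-35782469 inside Pank3 and Mir103-2 on the + strand at chr2:131288103-131288125 inside Pank2 share 1 mature miR-103. Mir107 lies on the - strand at chr19:34820700-34820722 inside Pank1. Exon and intron bounds of these host genes and their messenger RNA levels were not used here.

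Per array, 99 to 193 of the mouse miRNAs exceeded background, and 94 did so on all 33 arrays. The 75th percentile of signal, by which arrays were scaled, lay between 187 and 1211 units. Exposed arrays were brighter than controls by 0.66 on the log2 scale at day 1, and differed from them by -0.073 at day 3 and -0.62 at day 28 (two-sided exact permutation p = 0.0779, 0.848 and 0.0649). The 33 arrays sat on 9 slides. Exposed and control arrays never took the same places within a slide, so effects of place and of exposure cannot be told apart here. All 6 control arrays of day 1 shared 1 place and all 6 of day 28 another, and so did the exposed arrays of those days, so effects of place and of day cannot be told apart either. The 4 arrays of slide 1, 1 each of the exposed and control groups of days 1 and 3, stood apart from the other 29. They were also the only arrays of 1 of the 5 scan days, so effects of slide and of scan day cannot be told apart for them. Of the 94 miRNAs above background on all arrays, 23 had all slide 1 arrays outside the range of the others. Results that rest on slide 1 are therefore also given without it. Lung markers were present: 5 of 6 epithelial miRNAs, 1 of 2 endothelial, 2 of 3 ciliated-cell, 3 of 3 myeloid and 3 of 3 erythroid miRNAs were above background on all arrays, while the brain miRNAs miR-124 and miR-9 were so on none. The log2 of the summed signal of the myeloid list ranged from 9.76 to 11.17 in exposed and 9.16 to 10.82 in control lungs at day 1, and from 9.96 to 11.03 in exposed and 10.04 to 10.60 in control lungs at day 28. That of the erythroid list ranged from 12.22 to 13.15 in exposed and 12.44 to 13.05 in control lungs at day 1. It ranged from 12.53 to 13.68 and 12.01 to 12.88 at day 3, and 11.52 to 13.10 and 12.36 to 12.92 at day 28. Above background on all arrays were 1 of 3 lymphoid and 0 of 6 heart and skeletal muscle miRNAs. The log2 summed signal of the muscle list still ranged from 4.92 to 10.00 in control lungs at day 1. That of the liver list ranged from 0 to 7.16 in control lungs at day 3. The part of these cells and tissues in the values below was not tested.

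None of the 6 miRNAs passed the test between exposed and control lungs on any day. By limma over all 172 miRNAs, with Benjamini-Hochberg adjustment and a threshold of 0.05, 0 of 6 passed at day 1, 0 of 6 at day 3 and 0 of 6 at day 28, where 0.0%, 0.0% and 0.0% of all miRNAs passed. At an unadjusted p under 0.05 the counts over all miRNAs were 16, 2 and 13, and over the 6 they were 1, 0 and 0. Exposed and control values overlapped for each of the 6 on each day. Signals below are log2 values of the processed signal after scaling, changes are exposed minus control, and errors are SE of the fit over 33 arrays unless marked SD. For the probe and scaling used, the intervals give the uncertainty from the spread between arrays, differences between slides included. They do not cover the choice of probe or scaling, or effects of place on the slide. For miR-26a at day 3 the SE was 0.20, and 0.087 with slide as a fixed term in limma. Its day 1 SE was 0.18, and 0.11 without slide 1. At day 1 the SEs of miR-26b and miR-101a were slightly larger without slide 1, 0.072 against 0.071 and 0.104 against 0.099. Over the 6 miRNAs the 95% intervals of the exposed to control ratio ran from 0.771 to 1.44 at day 1, 0.739 to 1.32 at day 3 and 0.725 to 1.25 at day 28, and all of these outer bounds except 0.771 belonged to miR-26a.

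**Figure D1:**
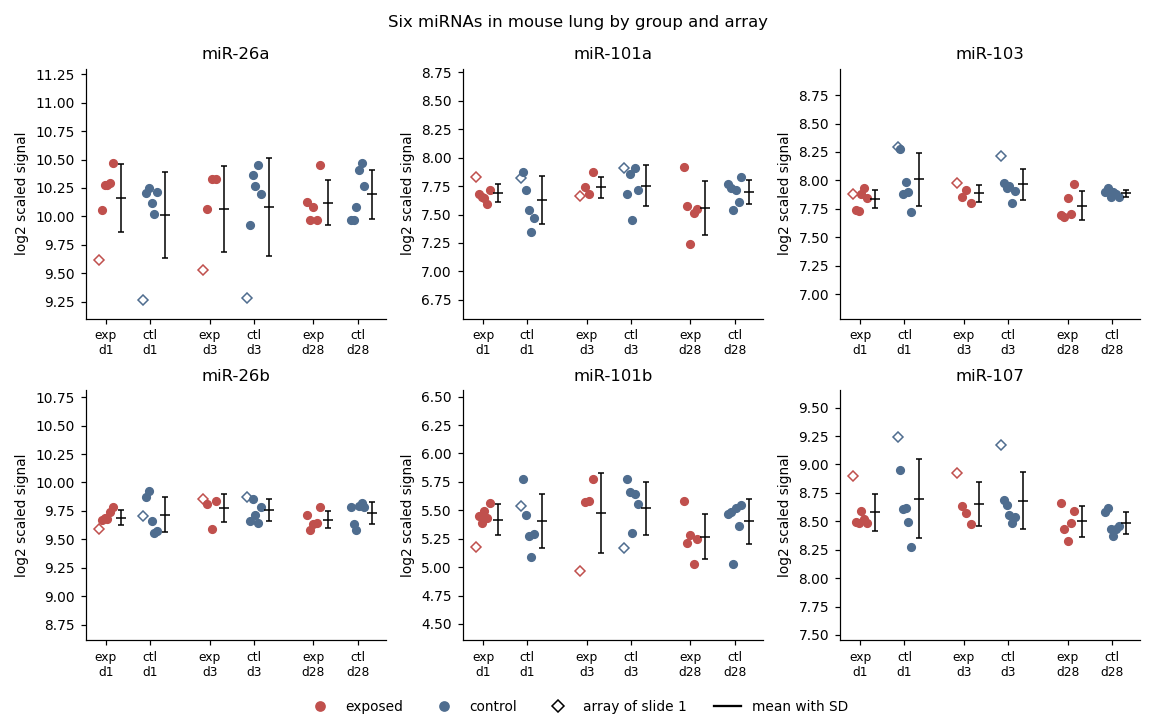
Scaled log2 signal of the 6 miRNAs (1 panel each, all spanning the same log2 range), with exposed (exp, red) left of control (ctl, blue) lungs at days 1, 3 and 28 (d1, d3, d28). Each point is 1 array and 1 mouse, open diamonds are the arrays of slide 1, and black bars are group means with SD. The slide 1 arrays lie lowest for miR-26a and highest for miR-107, and groups overlap in every panel.

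miR-26a was the widest of the 6. At day 1 its signal ran from 9.62 through a median of 10.28 to 10.47 in exposed lungs, and from 9.27 through 10.16 to 10.25 in control lungs. The groups overlapped, 4 of 6 exposed lungs lay above the control median, and the lowest value of each group came from slide 1. The change was 0.15 ± 0.18 (adjusted p = 0.707). At day 3 the 4 exposed lungs had 9.53, 10.06, 10.33 and 10.33, and control lungs ran from 9.29 through 10.23 to 10.45. Again the slide 1 arrays were the lowest in each group, and the change was -0.019 ± 0.20 (adjusted p = 0.996). At day 28, with no array on slide 1, the 5 exposed lungs had 10.13, 9.97, 10.08, 9.97 and 10.46, and control lungs ran from 9.97 through 10.18 to 10.47, a change of -0.073 ± 0.19 (adjusted p = 0.986). Without slide 1 the changes were 0.11 at day 1 and -0.00016 at day 3. Within slides, the exposed lung was higher than its control in 5 of 6 pairs at day 1, 3 of 4 at day 3 and 1 of 5 at day 28.

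miR-26b had the smallest spread. At day 1 it ran from 9.59 through a median of 9.68 to 9.78 in exposed lungs, and from 9.56 through 9.68 to 9.92 in control lungs. Exposed values lay inside the control range, and the change was -0.023 ± 0.071 (adjusted p = 0.862). At day 3 the exposed lungs had 9.85, 9.81, 9.59 and 9.84, against 9.65 to 9.87 with a median of 9.75 in control lungs. Only 1 exposed lung lay outside the control range, on its low side, and the change was 0.018 ± 0.079 (adjusted p = 0.996). At day 28 the exposed lungs had 9.71, 9.58, 9.64, 9.65 and 9.79, and control lungs ran from 9.58 through 9.78 to 9.82, a change of -0.059 ± 0.074 (adjusted p = 0.971). The interval of the ratio was 0.891 to 1.09 at day 1, 0.906 to 1.13 at day 3 and 0.865 to 1.07 at day 28, the narrowest of the 6 on each day. Same-slide pairs were split, with the exposed lung higher in 3 of 6, 2 of 4 and 1 of 5.

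miR-101a had signals from 7.59 through a median of 7.67 to 7.83 in exposed lungs at day 1, and from 7.34 through 7.63 to 7.87 in control lungs. Exposed values lay inside the control range, and the change was 0.058 ± 0.099 (adjusted p = 0.792). At day 3 the exposed lungs had 7.66, 7.74, 7.68 and 7.87, against 7.45 to 7.91 with a median of 7.79 in control lungs, a change of -0.014 ± 0.11 (adjusted p = 0.996). At day 28 the exposed lungs had 7.92, 7.57, 7.24, 7.51 and 7.55, and control lungs ran from 7.54 through 7.72 to 7.83. Both the highest and the lowest lung of that day were exposed, 1 of 5 exposed lungs lay above the control median, and the change was -0.14 ± 0.10 (adjusted p = 0.908). The exposed lung was higher in 4 of 6 same-slide pairs at day 1, in 2 of 4 at day 3 and in 1 of 5 at day 28, where the log2 differences ran from -0.30 to 0.15.

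miR-101b was the only 1 of the 6 not above background on every array, missing on 1 of the 6 control arrays of day 1. At day 1 it ran from 5.18 through a median of 5.44 to 5.57 in exposed lungs, and from 5.09 through 5.37 to 5.78 in control lungs, a change of 0.013 ± 0.13 (adjusted p = 0.956). At day 3 the exposed lungs had 4.97, 5.57, 5.58 and 5.78, against 5.17 to 5.77 with a median of 5.60 in control lungs. The slide 1 array was the lowest exposed lung there, and the change was -0.042 ± 0.15 (adjusted p = 0.996). At day 28 the exposed lungs had 5.58, 5.21, 5.28, 5.03 and 5.25, and control lungs ran from 5.02 through 5.48 to 5.55, a change of -0.13 ± 0.14 (adjusted p = 0.919). Both groups reached nearly the same lowest value. The exposed lung was higher in 3 of 6, 1 of 4 and 2 of 5 same-slide pairs. Without slide 1 the day 3 changes of miR-101a and miR-101b had the opposite sign, 0.043 and 0.057.

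miR-103 was lower in exposed lungs by its point estimate on each day, but did not pass the test. At day 1 it ran from 7.73 through a median of 7.86 to 7.93 in exposed lungs, and from 7.72 through 7.94 to 8.29 in control lungs. None of the 6 exposed lungs lay above the control median, although the lowest lung of the day was a control. The change was -0.17 ± 0.084 (adjusted p = 0.485), and the interval of the ratio, 0.787 to 0.998, left out 1. At day 3 the exposed lungs had 7.98, 7.85, 7.91 and 7.80, against 7.80 to 8.21 with a median of 7.94 in control lungs, a change of -0.077 ± 0.094 (adjusted p = 0.996). At day 28 the exposed lungs had 7.70, 7.68, 7.84, 7.70 and 7.97, and control lungs ran from 7.85 through 7.89 to 7.93. The exposed lungs included both the highest and the lowest value, and the change was -0.11 ± 0.088 (adjusted p = 0.919). Same-slide pairs were lower in the exposed lung in 4 of 6, 4 of 4 and 4 of 5. The direction of these changes depended on the probe, as given below.

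miR-107 ran at day 1 from 8.49 through a median of 8.51 to 8.90 in exposed lungs, and from 8.27 through 8.62 to 9.24 in control lungs. The highest lung of each group was on slide 1, 1 of 6 exposed lungs lay above the control median, and the change was -0.12 ± 0.13 (adjusted p = 0.673). At day 3 the exposed lungs had 8.92, 8.63, 8.57 and 8.48, against 8.48 to 9.17 with a median of 8.60 in control lungs, a change of -0.028 ± 0.14 (adjusted p = 0.996). At day 28 the exposed lungs had 8.66, 8.43, 8.32, 8.48 and 8.59, and control lungs ran from 8.37 through 8.44 to 8.62, a change of 0.018 ± 0.13 (adjusted p = 0.986). Same-slide pairs were lower in the exposed lung in 4 of 6, 4 of 4 and 2 of 5. Without slide 1 the changes were -0.075 at day 1 and -0.020 at day 3.

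Averaged over the 3 days, the changes ran from -0.12 for miR-103 to 0.020 for miR-26a, with 0 of 6 past the threshold where 0.581% of all miRNAs passed. For miR-103 the mean change was -0.12 ± 0.051 (adjusted p = 0.338), an exposed to control ratio of 0.920 with a 95% interval of 0.856 to 0.989. Slide as a fixed term in limma gave miR-103 a mean change of -0.13 with an adjusted p of 0.0894, and scan day as a fixed term -0.13 with 0.0623. With all alternatives counted, leaving out single arrays included, the adjusted p of this mean change lay between 0.0623 and 0.986. The median change of the 6 was -0.0048, -0.024 and -0.091 at days 1, 3 and 28, beside -0.097, -0.036 and -0.034 over all 172 miRNAs. The median size of change, whatever its sign, was 0.089, 0.024 and 0.091 for the 6, beside 0.17, 0.086 and 0.12 over all. The 2 sets were not matched for signal, since 5 of the 6 but only 94 of the 172 were above background on all arrays.

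**Figure D2:**
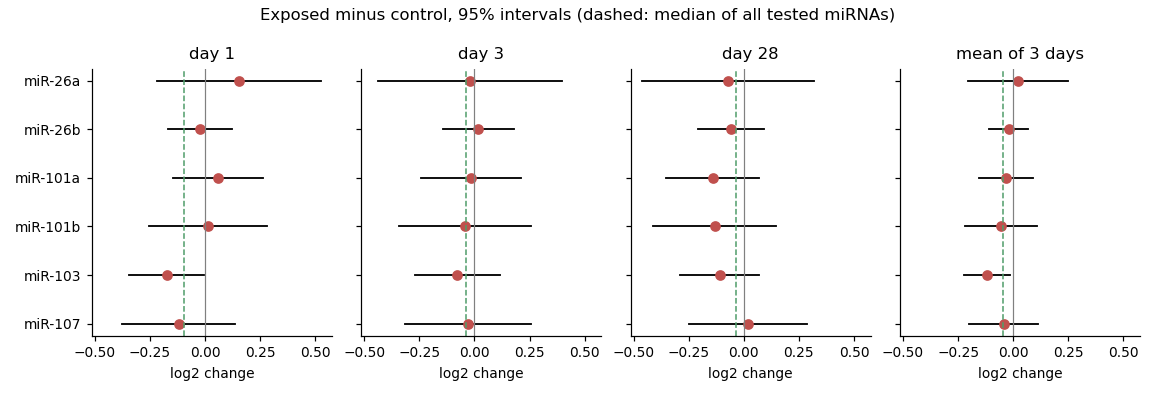
Log2 change of each miRNA, exposed minus control, at days 1, 3 and 28 and as the mean of the 3 days (points, with 95% limma intervals as lines). The grey line is 0 and the dashed line the median change of all 172 miRNAs tested. The intervals for miR-103 at day 1 and for its mean are the 2 of 24 that leave out 0, and neither passed after adjustment.

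The exposure changes of the 6 did not differ detectably between days. In the tests of day 3 against day 1, day 28 against day 1 and day 28 against day 3, 0 of 6 passed, with smallest adjusted p of 0.990, 0.925 and 0.999 among the 6 in limma, and 0.0%, 0.0% and 0.0% of all miRNAs passed. The widest point estimate was that of miR-26a, with a day 28 change lower than its day 1 change by a log2 difference of -0.23 ± 0.26. These tests used the main scaling. Without scaling, and with normexp background correction, the limma test of day 28 against day 1 called 6 and 1 of the 6. Both settings also moved the median change of all miRNAs, as given below. The share of all miRNAs called there is not given, so these counts do not set the 6 apart from the rest. Over time within exposed lungs, 0 of 6 passed the limma F test over the 3 days, where 0.0% of all miRNAs passed, and the smallest adjusted p was 0.724 for miR-101a. Day 28 against day 3 in exposed lungs called 0 of 6, where 1.74% of all miRNAs passed, and the other exposed day pairs called 0 of 6, where 0.0% passed. Within control lungs 0 of 6 passed that F test, where 1.16% passed, with a smallest adjusted p of 0.459 for miR-107. Day 28 against day 1 in control lungs, which was also 1 place on the slide against another, called 0 of 6, where 6.98% of all miRNAs, 12 of 172, passed. Of those 12, 1 was higher and 11 lower at day 28. That split depended on the scaling, with 5 higher and 0 lower when arrays were scaled over all probes, 127 called with normexp background correction, all but 2 of them lower, and only higher calls without scaling. The 6 ranged from -0.22 for miR-107 to 0.18 for miR-26a in that contrast, beside a median of -0.17 over all miRNAs.

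The group means of each miRNA lay close together. From low to high, miR-26a went control day 1, exposed day 3, control day 3, exposed day 28, exposed day 1 and control day 28, with means from 10.01 to 10.19. For miR-26b the order was exposed day 28, exposed day 1, control day 1, control day 28, control day 3 and exposed day 3, from 9.67 to 9.77. For miR-101a it was exposed day 28, control day 1, exposed day 1, control day 28, exposed day 3 and control day 3, from 7.56 to 7.75. The order of miR-101b was exposed day 28, control day 28, control day 1, exposed day 1, exposed day 3 and control day 3, from 5.27 to 5.52. For miR-103 it was exposed day 28, exposed day 1, exposed day 3, control day 28, control day 3 and control day 1, from 7.78 to 8.01. For miR-107 it was control day 28, exposed day 28, exposed day 1, exposed day 3, control day 3 and control day 1, from 8.48 to 8.70. The range of the 6 group means was 0.099 for miR-26b and at most 0.25, for miR-101b. In none of the 6 orders did neighbouring groups differ by more than the larger of their SDs.

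As the 6 were named as a candidate reference, their spread over all 33 arrays was described beside that of the 94 miRNAs above background on every array, whose median SD was 0.25 on the log2 scale. miR-26b had an SD of 0.10, the smallest of the 94, and its highest array was 1.29-fold above its lowest. miR-103 had an SD of 0.15, with 4 of the other 93 smaller, and miR-101a one of 0.16, with 8 smaller. miR-107 had an SD of 0.22 with 24 smaller, and miR-101b one of 0.22, below which lay 28 of the 94. miR-26a had an SD of 0.31, with 63 of the other 93 smaller, and a 2.31-fold range. The 2 members of the miR-26 family have the same seed and the same kind of host gene. They had the smallest and the largest SD of the 6 over the 33 arrays.

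**Figure D3:**
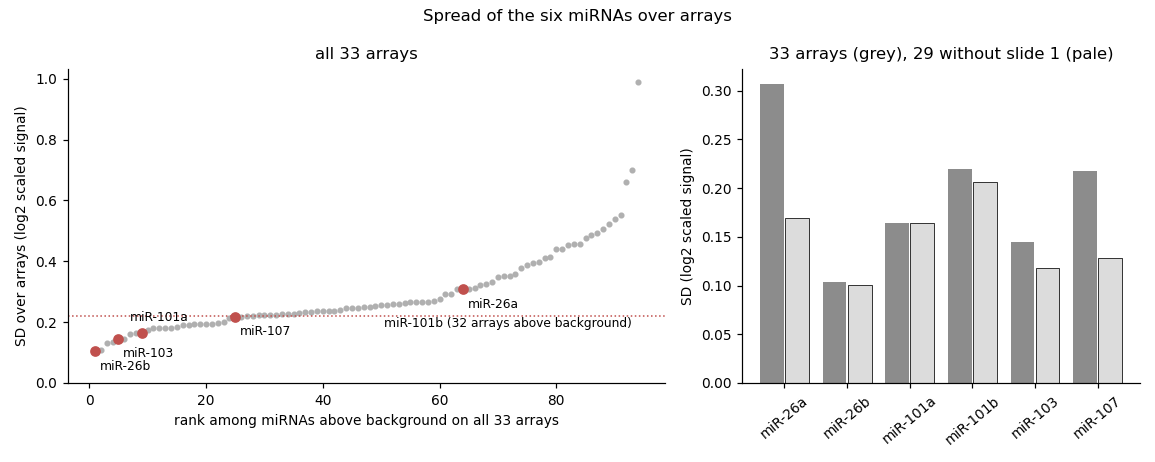
Left, the SD of scaled log2 signal over 33 arrays for 94 miRNAs in rank order (grey), with 5 of the 6 miRNAs in red and miR-101b, above background on 32 arrays, as a dotted line. Right, the SD of each of the 6 over 33 arrays (grey bars) and over the 29 arrays outside slide 1 (pale bars), which is lower for miR-26a and miR-107.

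Part of this ranking rested on slide 1. miR-26a lay between 9.27 and 9.62 on the 4 arrays of slide 1 and between 9.93 and 10.47 on the other 29, with no overlap. miR-107 went the other way, between 8.90 and 9.24 on slide 1 and between 8.27 and 8.95 on the others, with an overlap at the edge. The other 4 miRNAs overlapped widely, for example miR-26b with 9.59 to 9.87 on slide 1 and 9.56 to 9.92 elsewhere. Without slide 1 the SD of miR-26a was 0.17, with 35 of 93 others smaller, and that of miR-107 was 0.13, with 5 smaller. miR-26b kept an SD of 0.10, with 1 of 93 smaller, and miR-103 had one of 0.12, with 4 smaller. miR-101a stayed at 0.16 but then had 31 smaller, since the median SD of the 94 miRNAs was 0.20 without slide 1. miR-101b had an SD of 0.21, with 53 of 94 smaller.

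The ranking also depended on the values used. Second probes were ranked against the brighter probes of the other miRNAs, so their ranks set a dimmer probe beside brighter ones. The near-top place of miR-103 did not hold for its second probe, which was above background on all 33 arrays and had an SD of 0.26 with 49 of 93 others smaller, and 0.20 with 52 smaller without slide 1. The second probes of miR-26b and miR-101a had SDs of 0.12, with 1 smaller, and 0.15, with 6 smaller. Those of miR-26a and miR-107 had SDs of 0.42, with 78 smaller, and 0.22, with 27 smaller. Without slide 1 these 2 SDs were 0.31, with 71 smaller, and 0.16, with 27 smaller. The lower rank of miR-26a without slide 1 was thus less marked on its second probe, and that of miR-107 was not seen on its second probe. With the 6 miRNAs' own probes left out of the percentile, miR-26b had an SD of 0.094 and still the smallest of the 94. In the authors' deposited series table its SD was 0.14, and 33 of 93 others were smaller, while miR-103 had an SD of 0.071 with 3 smaller. Scaling on the 75th percentile over all probes gave all 6 SDs between 0.35 and 0.44, beside a median of 0.41 over the 94. Without any scaling their SDs were 0.64 to 0.77, and the brightest array exceeded the dimmest by 7.63-fold to 8.41-fold. When arrays were instead centred on the mean of the 6 miRNAs, limma called 0 of 172 miRNAs at each of the 3 days and 2 for the mean over days, against 1 with the main scaling. In control lungs, day 28 against day 1, that centring called 2 miRNAs, 0 higher and 2 lower, against 12.

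Every miRNA here has 2 probes with 10 spots each, and the brighter probe carried the values above. The 2 probes of miR-26a, miR-26b, miR-101a and miR-107 moved together over the 33 arrays, with Pearson correlations of 0.95, 0.80, 0.78 and 0.96, and 0.93, 0.87, 0.86 and 0.93 over the 29 arrays outside slide 1. Those of miR-101b had 0.73 over 33 arrays and 0.72 over 29, and its second probe was above background on 7 arrays. The 2 probes of miR-103 did not move together, with a Pearson correlation of -0.35 and a Spearman correlation of -0.16 over 33 arrays, and 0.092 and 0.11 over 29. On slide 1 the second probe lay between 5.15 and 5.51, and elsewhere between 5.47 and 6.17, while the first probe lay between 7.88 and 8.29 on slide 1 and between 7.68 and 8.28 elsewhere. Both probes were above background on all 33 arrays. The second probe gave changes of 0.23 ± 0.15, 0.11 ± 0.17 and 0.13 ± 0.16 at days 1, 3 and 28 (limma adjusted p = 0.506, 0.996 and 0.966), opposite in sign to those of the first probe. With the mean of both probes the changes of miR-103 were 0.027, 0.015 and 0.0080. The negative changes of the first probe were therefore not seen with the second.

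**Figure D4:**
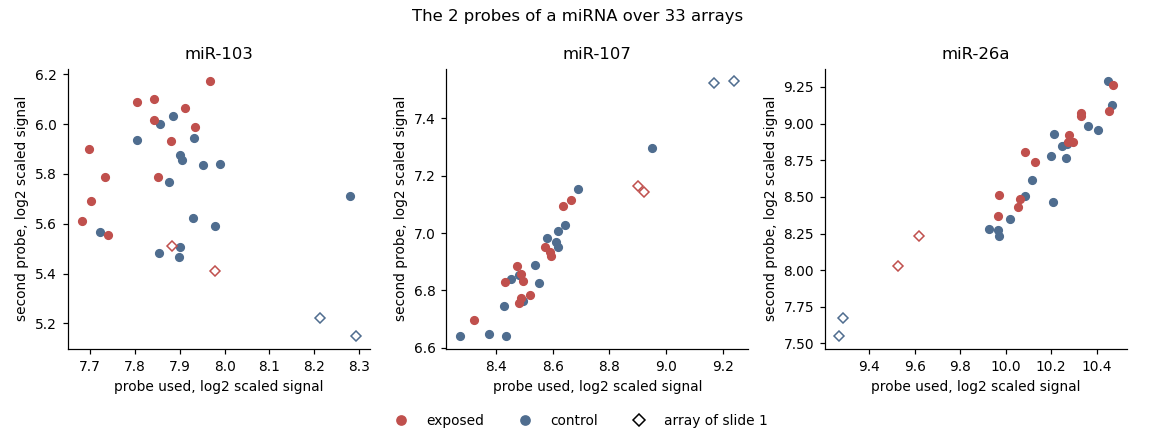
Scaled log2 signal of the second probe against the probe used, for miR-103, miR-107 and miR-26a, with 1 point per array (exposed in red, control in blue, slide 1 arrays as open diamonds). The 2 probes lie along a line for miR-107 and miR-26a, and form no line for miR-103.

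The difference between 2 members of a family on the same array does not depend on how arrays are scaled. Its absolute value compares 2 probes and has no meaning of its own, so only its change between groups was read. For miR-26a minus miR-26b, the exposed mean was 0.47 ± 0.24 and the control mean 0.30 ± 0.38 at day 1 (SD, n = 6 and 6), a change of 0.18 ± 0.18 (two-sided exact permutation p = 0.405). The exposed lung was higher than its same-slide control in 6 of 6 pairs at day 1, by 0.045 to 0.46, in 3 of 4 at day 3 and in 3 of 5 at day 28. An exact two-sided test that flipped the signs of the same-slide differences, chosen after seeing the data, gave a day 1 mean of 0.18 ± 0.066 (SE, 6 pairs) with p = 0.0312, the smallest it can give, and 0.281 after Benjamini-Hochberg adjustment over its 9 tests. Its day 3 mean was 0.14 ± 0.065 (4 pairs, exact p = 0.250), opposite in sign to the difference of group means. Its changes at days 3 and 28 were -0.037 and -0.015 (exact p = 0.895 and 0.879). For miR-101a minus miR-101b the changes were 0.045, 0.028 and -0.0084 (exact p = 0.773, 0.905 and 0.955). For miR-103 minus miR-107 they were -0.055, -0.049 and -0.13 (exact p = 0.506, 0.533 and 0.162). At day 28 the exposed mean of that last pair was -0.72 ± 0.18 (SD, n = 5) and the control mean -0.59 ± 0.082 (SD, n = 6). Same-slide differences of miR-103 minus miR-107 averaged -0.055 ± 0.017 at day 1 (SE, 6 pairs, lower in the exposed lung in 5 of 6, exact sign-flip p = 0.0625, adjusted 0.281). Over the 9 tests that permuted arrays every Benjamini-Hochberg adjusted p was 0.955, and the smallest p the design allowed was 0.00216 at days 1 and 28 and 0.00476 at day 3.

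**Figure D5:**
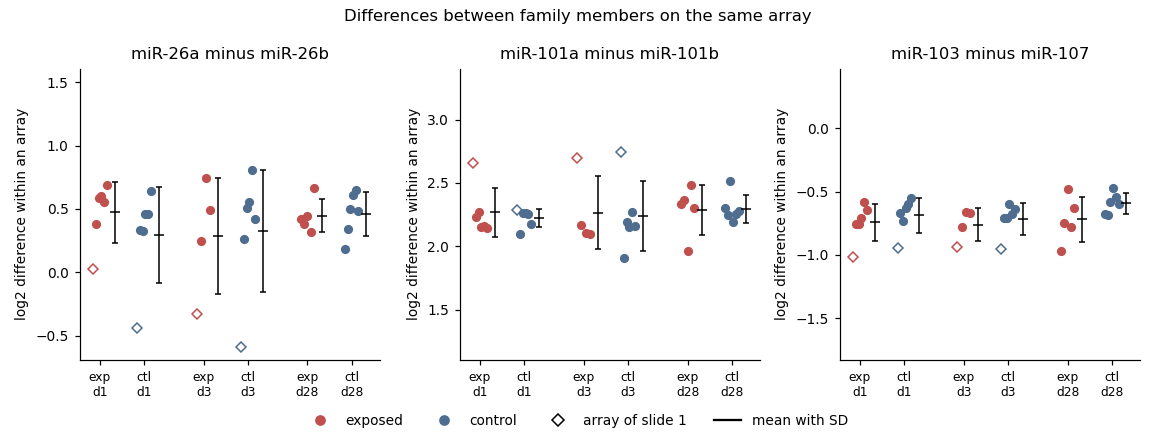
Log2 difference between 2 family members on the same array, with exposed (exp, red) left of control (ctl, blue) lungs at days 1, 3 and 28, 1 point per array, slide 1 arrays as open diamonds, and group means with SD as black bars. Slide 1 arrays lie lowest for miR-26a minus miR-26b, and the groups of each day overlap in every panel.

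Over the 29 arrays outside slide 1, members of a family followed each other to different degrees. Scaled signals of miR-101a and miR-101b had a Pearson correlation of 0.79 (Spearman 0.85), those of miR-103 and miR-107 one of 0.67 (0.55), and those of miR-26a and miR-26b one of 0.44 (0.47). Over all 33 arrays the Pearson values were 0.57, 0.78 and 0.073, so slide 1 alone set much of the last. Between families, miR-26a and miR-107 had a correlation of -0.74 over 33 arrays but -0.12 over 29. These correlations share each array's scaling factor and are descriptions of the arrays. Within an array the difference of miR-103 and miR-107 had an SD of 0.14 over 33 arrays, that of miR-101a and miR-101b 0.18, and that of miR-26a and miR-26b 0.32.

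The 3 miRNAs most like each of the 6 over the 33 arrays were found by Pearson correlation among the other 89 that were above background on all arrays. For miR-26a they were miR-30e with 0.96, miR-30b with 0.94 and miR-125b-5p with 0.88, and these had 0.88, 0.84 and 0.69 over 29 arrays. miR-26b had no close neighbour, with miR-24 at 0.48, miR-10a at 0.46 and miR-98 at 0.44, and 0.57, 0.59 and 0.52 over 29. For miR-101a they were miR-10a with 0.59, miR-27b with 0.57 and miR-98 with 0.54, and 0.60, 0.77 and 0.46 over 29. For miR-101b they were miR-27b with 0.74, miR-16 with 0.66 and miR-200a with 0.59, and 0.75, 0.75 and 0.55 over 29. miR-103 was nearest to miR-497 with 0.86, miR-99a with 0.86 and miR-130a with 0.85, and 0.78, 0.80 and 0.74 over 29. miR-107 was nearest to miR-15a with 0.92, let-7i with 0.92 and miR-199a-3p with 0.91, and 0.73, 0.74 and 0.77 over 29. Both miR-101 members thus shared miR-27b among their nearest, while the nearest of miR-26a and miR-26b had none in common.

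Among other miRNAs, the star strands miR-101a* and miR-26b* were above background on 0 of 33 arrays and were not tested. miR-103 and miR-107 belong to a wider group that carries the letters AGCAGC near the 5′ end and acts on cell-cycle regulators such as cyclins. The letters, read on the given strand alone, start at base 1 in miR-103 and miR-107 and at base 2 in miR-15a, miR-15b, miR-16, miR-195, miR-322, miR-497 and miR-503, and 0.896% of 1674 distinct mouse mature sequences hold them within the first 9 bases. Of the 7 group members on the array outside the 6 miRNAs, 6 were tested and 0 passed in either direction at days 1, 3 and 28. Their median changes were -0.21, -0.10 and -0.070, with miR-322 at -0.28 ± 0.16 and miR-497 at -0.22 ± 0.14 at day 1 (limma adjusted p = 0.487 and 0.499). Of 18 miRNAs often used as references, 13 were tested and 0 passed in either direction on any day, with median changes of -0.11, -0.027 and -0.095. miR-24, one of them, had an SD over 33 arrays of 0.11, and let-7a one of 0.25. miR-191 and miR-423-3p, also on that list, were above background on 0 arrays. Of 20 other miRNAs inside genes, 16 were tested and 0 passed on any day, with median changes of -0.081, -0.0082 and -0.035. Over all 172 miRNAs 0 passed on each of these days, with median changes of -0.097, -0.036 and -0.034. The lists overlap, for example in miR-16.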

How the data were processed

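Total RNA of 33 lungs, 1 array per mouse, was measured in 1 colour. Per the file headers, the deposited spot intensities came from Agilent Feature Extraction 10.7.3.1, which subtracts background on the array and does not scale between arrays. The authors also deposited a series matrix of log2 values, whose scaling and centring were not stated and which served only as an alternative. From the spots, control spots and the 2.30% marked as outliers were left out, spots of a probe were averaged, each array was divided by the 75th percentile of the 156 probes above background on all arrays and set to a common scale, a floor of 1 was applied, and log2 was taken. The brighter probe stood for a miRNA. A miRNA was tested if it was above background on at least 4 arrays of a group, which left 172 (171 of mouse). limma 3.58.1 in R 4.3.3 (with the data.table package, version 1.17.8) fitted 6 group means (27 residual degrees of freedom), with a trended eBayes, two-sided tests and Benjamini-Hochberg adjustment over the 172 at 0.05. The procedure was tested on simulated data. Family differences were tested by exact permutation over arrays, without regard to slide. The number of arrays limits the precision.

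The miRNAs named are the 6, the 3 nearest to each by Pearson correlation, the marker lists and 4 further lists (star strands, the AGCAGC group, reference miRNAs, miRNAs inside genes). The 6 miRNAs and all lists were chosen with earlier results of these data known. Alternatives covered scaling, background correction (normexp on median signals, offset 50, since the files hold no mean signal), probe summary, detection filter, blocks for slide and scan day, and left-out arrays. Spread and correlations without slide 1, the spread of second probes and the sign-flip test on same-slide pairs were added after seeing the data.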

Additional observations from a re-analysis of the deposited data

Results flagged for a closer look

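Single arrays that stood far from the rest of their group were sought in 54 groups of values, and chance marks about 1 in 20 such groups. Of these, 10 had one, 7 of them an array of slide 1. For miR-26a, 1 control lung of day 1, on slide 1, had a scaled log2 signal of 9.27, while the other 5 had 10.02 to 10.25. The same array had a miR-26a minus miR-26b difference of -0.44, against 0.32 to 0.64 in the others. For miR-107, 1 exposed lung of day 1 on slide 1 had 8.90, while the others had 8.49 to 8.59. A control lung of day 3, also on slide 1, had 9.17 for miR-107, with 8.48 to 8.69 in the others, and a miR-103 minus miR-107 difference of -0.95, against -0.71 to -0.60. The miR-101a minus miR-101b difference was 2.65 in the exposed lung of day 1 on slide 1, with 2.15 to 2.27 in the others, and 2.69 in the exposed lung of day 3 on slide 1, with 2.09 to 2.17 in the others.

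Away from slide 1, 1 exposed lung of day 3 had a miR-26b signal of 9.59, while the other 3 had 9.81 to 9.85. In 1 control lung of day 28 the miR-101b signal was 5.02, with 5.36 to 5.55 in the others, and the miR-101a minus miR-101b difference was 2.51, against 2.19 to 2.30. What set these arrays apart was not tested.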

How the results depend on the processing

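Changes are log2, exposed minus control. Under every alternative run, limma called none of the 6 miRNAs for exposure on a day or for the mean of the days. With the scaling of the report, calls over all miRNAs were 0 at days 1, 3 and 28, 1 for the mean of the days and 6.98% for control day 28 against day 1. Other scalings moved the median change of all miRNAs by over 0.1. At day 1 it was -0.36 with normexp, 0.089 over all probes and 0.56 without scaling, against -0.097. At day 28 it was 0.28, -0.28 and -0.65, against -0.034. In control lungs, day 28 against day 1, it was -0.64, 0.26 and 1.01, against -0.17. The cause of the changes below was not tested. With the mean over probes, the sign turned to 0.027 for miR-26b, 0.027 for miR-103, -0.16 for miR-101a minus miR-101b and 0.15 for miR-103 minus miR-107 (day 1), and 0.0050 for miR-26a, 0.015 for miR-103, -0.011 for miR-101a minus miR-101b and 0.042 for miR-103 minus miR-107 (day 3), and 0.0080 for miR-103, 0.00036 for miR-26a minus miR-26b and 0.058 for miR-101a minus miR-101b (day 28), and 0.020 for miR-26b, 0.026 for miR-101b and 0.017 for miR-103 (the mean of the days). The test called 2 for day 1 and 2 for the mean of the days. With the percentile over all probes, the sign turned to 0.16 for miR-26b, 0.012 for miR-103 and 0.067 for miR-107 (day 1), and -0.023 for miR-26b (day 3), and -0.23 for miR-107 (day 28), and -0.013 for miR-26a (the mean of the days). SDs over arrays were 0.35 for miR-26b, 0.41 for miR-101a, 0.41 for miR-101b, 0.38 for miR-103 and 0.44 for miR-107. Calls over all miRNAs were 3 for day 1, 0 for the mean of the days and 2.91% for control day 28 against day 1. Without scaling, the sign turned to 0.64 for miR-26b, 0.49 for miR-103 and 0.54 for miR-107 (day 1), and -0.055 for miR-26b (day 3), and -0.60 for miR-107 (day 28). SDs over arrays were 0.77 for miR-26a, 0.66 for miR-26b, 0.69 for miR-101a, 0.71 for miR-101b, 0.64 for miR-103 and 0.65 for miR-107. Over all miRNAs the calls were 6 for day 1 and 82.6% for control day 28 against day 1. Calls among the 6 numbered 6 for control day 28 against day 1 and 6 for the change of day 28 against that of day 1. For the latter the share of all miRNAs called is not given here. Their median change was 0.56 at day 1 and -0.65 at day 28. With normexp, the sign turned to -0.10 for miR-101a and -0.38 for miR-101b (day 1), and 0.25 for miR-101b (day 28), and -0.0062 for miR-101a minus miR-101b (day 3). Limma called 1 for day 28 and 73.8% for control day 28 against day 1. Calls among the 6 numbered 3 for control day 28 against day 1 and 1 for the change of day 28 against that of day 1. The median change of all miRNAs there was -0.36 at day 1 and 0.28 at day 28. With the total gene signal, the sign turned to 0.0057 for miR-26a (day 3), and 0.010 for miR-26a, 0.027 for miR-26b and 0.18 for miR-101a minus miR-101b (day 28), and 0.019 for miR-26b (the mean of the days), and -0.065 for miR-101a minus miR-101b and 0.016 for miR-103 minus miR-107 (day 1). The test called 3 for day 1, 2 for the mean of the days and 1.16% for control day 28 against day 1. With quantile normalization, the sign turned to -0.043 for miR-26b (day 3), and 0.0093 for miR-101a (the mean of the days). Calls over all miRNAs were 4 for day 1, 1 for day 28, 2 for the mean of the days and 0.0% for control day 28 against day 1. With only miRNAs above background on all arrays, over all miRNAs the calls were 1 for day 1 and 0 for the mean of the days. With no filter, limma called 3 for day 1, 1 for day 28 and 2.62% for control day 28 against day 1. With slide as a random block, the sign turned to 0.037 for miR-26a (day 3). The test called 2 for day 1, 4 for the mean of the days and 11% for control day 28 against day 1. Without slide 1, the sign turned to 0.043 for miR-101a, 0.057 for miR-101b and -0.014 for miR-101a minus miR-101b (day 3), and 0.0043 for miR-101b (the mean of the days), and -0.020 for miR-101a minus miR-101b (day 1). SDs over arrays were 0.17 for miR-26a and 0.13 for miR-107. Calls over all miRNAs were 2 for day 1, 1 for day 3, 1 for day 28, 6 for the mean of the days and 2.33% for control day 28 against day 1. With array weights, the sign turned to 0.025 for miR-26a, -0.021 for miR-26b, 0.031 for miR-101a and 0.042 for miR-101b (day 3), and 0.0045 for miR-101a and 0.018 for miR-101b (the mean of the days). Over all miRNAs the calls were 2 for day 1, 2 for day 3, 5 for day 28 and 9 for the mean of the days. Centred on the 6 miRNAs, the sign turned to 0.0075 for miR-26a and 0.013 for miR-101a (day 3), and 0.010 for miR-26a and 0.024 for miR-26b (day 28), and 0.021 for miR-26b and 0.0095 for miR-101a (the mean of the days). Limma called 2 for the mean of the days and 1.16% for control day 28 against day 1. Centred on the median miRNA, the sign turned to 0.022 for miR-26a, 0.027 for miR-101a and 0.013 for miR-107 (day 3), and 0.00093 for miR-26b (the mean of the days). The test called 2 for the mean of the days and 1.74% for control day 28 against day 1. With slide as a fixed block, the sign turned to 0.071 for miR-26a (day 3). Calls over all miRNAs were 14 for the mean of the days. With scan day as a block, the sign turned to 0.060 for miR-26a (day 3). Over all miRNAs the calls were 10 for the mean of the days. With the 6 miRNAs left out of the percentile, the sign turned to -0.0019 for miR-26b (day 3). Limma called 2 for the mean of the days. In the authors' deposited table, the sign turned to 0.12 for miR-26a, 0.12 for miR-26b, 0.0020 for miR-101a, 0.00055 for miR-103 and 0.041 for miR-101a minus miR-101b (day 28), and 0.038 for miR-26b, 0.0037 for miR-101a and 0.0018 for miR-101b (the mean of the days), and -0.0084 for miR-101a minus miR-101b and 0.041 for miR-103 minus miR-107 (day 1), and -0.028 for miR-101a minus miR-101b (day 3). SDs over arrays were 0.093 for miR-101a, 0.11 for miR-101b, 0.071 for miR-103 and 0.14 for miR-107. The test called 0 for the mean of the days and 2.91% for control day 28 against day 1. With a floor of 10, calls over all miRNAs were 1 for day 28 and 0 for the mean of the days. Over same-slide pairs, the sign turned to 0.14 for miR-26a minus miR-26b (day 3). With the second probe alone, SDs over arrays were 0.45 for miR-101b and 0.26 for miR-103. Leaving out 1 array at a time, calls ranged from 0 to 2 for day 1, 0 to 4 for day 28 and 0 to 5 for the mean of the days, and control day 28 against day 1 had 0.0% to 12.8% called. Changes whose sign then turned ranged from -0.055 to 0.019 for miR-26b, -0.050 to 0.088 for miR-101b and -0.032 to 0.069 for miR-101a minus miR-101b (day 1), and -0.18 to 0.16 for miR-26a, -0.0090 to 0.080 for miR-26b, -0.075 to 0.018 for miR-101a, -0.14 to 0.13 for miR-101b, -0.12 to 0.070 for miR-107, -0.22 to 0.17 for miR-26a minus miR-26b, -0.12 to 0.13 for miR-101a minus miR-101b and -0.10 to 0.010 for miR-103 minus miR-107 (day 3), and -0.024 to 0.061 for miR-107, -0.070 to 0.023 for miR-26a minus miR-26b and -0.056 to 0.074 for miR-101a minus miR-101b (day 28), and -0.033 to 0.080 for miR-26a and -0.087 to 0.0024 for miR-101b (the mean of the days). Replicate numbers pair no samples, since no 2 groups share one. Same-slide pairs entered through slide as a block in limma and through the sign-flip test.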

Other observations

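The unscaled log2 signal of the probes followed array brightness, the log2 of the scaling percentile, with slopes near 1 over the 33 arrays. The brighter probes had slopes of 1.14 for miR-26a, 1.05 for miR-26b, 1.09 for miR-101a, 1.08 for miR-101b, 1.00 for miR-103 and 0.987 for miR-107. The second probe of miR-101b, above background on 7 arrays, had a slope of 1.47, so that its scaled signal was higher on brighter arrays.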
